A study of Homo sapiens with 8 samples.

Results

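The heat shock proteins and chaperonins described here are 39 genes, chosen by symbol from the 58828 genes counted, and all 39 were found. By role they are 9 genes of the HSP70 family, 3 of the HSP110 family, 2 of the cytosolic HSP90 family, 4 HSP90 co-chaperones, 6 J-domain proteins, 4 small heat shock proteins and their partner BAG3, both genes of the mitochondrial chaperonin, 7 of the cytosolic CCT chaperonin and 2 heat shock factors. The list holds gene names and no measured value, but it was drawn up with earlier results of these data known.

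Molecular chaperones bind unfolded or partly folded proteins and keep them from aggregating. HSP70 proteins bind and release clients in cycles driven by ATP, J-domain proteins deliver the clients and start the cycle, and HSP110 proteins exchange the nucleotide. HSP90 and its co-chaperones act later, on clients such as kinases. The chaperonins HSPD1 with HSPE1 in mitochondria and CCT in the cytosol enclose their clients in a chamber, and CCT folds actin and tubulin. Under heat, oxidants and other stresses that damage proteins, the heat shock factor HSF1 binds heat shock elements in the promoters of inducible members such as HSPA1A, HSPA6 and DNAJB1 and raises their transcription.

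The study asked how the cancer testis antigen PAGE4 changes the response of prostate cancer cells to oxidative stress. RNA was sequenced from 22RV1 and DU145, established human prostate cancer lines. The cells of a line held an empty vector, or PAGE4 with an HA tag expressed from a doxycycline-inducible lentiviral vector. They were selected with puromycin, so each construct in a line is 1 transduced population, and doxycycline was given to vector cells as well. Cells received PBS as control or 200 mM H2O2, the dose given in the labels, 12 h before collection. A lower concentration is stated in the study for another assay, and the dose cannot be checked from these counts. Each of the 8 conditions (2 lines, 2 constructs, 2 treatments) had 1 library. The value of a single pair of libraries therefore has no replicate error. Tests used the spread between pairs, estimated in part from other genes.

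Total counts ranged from 25482984 in 22RV1 PAGE4 cells with H2O2 to 43310401 in 22RV1 vector cells with PBS. PAGE4 had 0 or 1 count in the 4 vector libraries and 1001 to 1489 counts in the 4 PAGE4 libraries. Among genes that mark the lines, KLK2, KLK3, TMPRSS2 and HOXB13 were higher in 22RV1 and at or near 0 in DU145. TRPM8 was near 0 in both lines, VIM, CAV1 and S100A2 were higher in DU145, and CD44 and LGALS1 did not separate the lines. The share of counts from mitochondrial genes was lower with H2O2 in all 4 pairs (9.19% against 12.3%, 8.97% against 10.2%, 11.2% against 16.5% and 10.9% against 14.6%), and its part in the results below was not tested. In bulk RNA, fewer cells with a transcript and less of it in each cell cannot be told apart.

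The promoters of the members were searched for the heat shock element, written as units of GAA and its reverse complement TTC with 2 bases between them. A match of 3 units was GAANNTTCNNGAA or TTCNNGAANNTTC, and a match of 2 units was GAANNTTC or TTCNNGAA, which every match of 3 units contains. Both orders were counted, which covers both strands. The 250 bases before each RefSeq transcription start (GRCh38.p14) were available for 35 of the 39 members. A match of 3 units was present in 7 of the 35 members (20.0%) and in 152 of 27303 genes (0.56%). These 7 members were HSPA6, HSPA8, HSP90AA1, HSP90AB1, CHORDC1, DNAJB6 and HSPD1. A match of 2 units was present in 18 of the 35 members (51.4%) against 14.0% of all genes, HSPA1A, HSPA1B and DNAJB1 among them. No window was available for HSPA14, FKBP4, CRYAB and HSF1. A match is a description of letters in this window and not a measured binding site.

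Windows of 5 members are shown because these genes stand for the patterns described below, with the matches of 3 units in capitals. HSPA6 rose in all 4 pairs, HSPA8 rose in DU145 and fell in 22RV1, CHORDC1 rose in both lines and more in DU145, and HSP90AA1 and HSPD1 fell in 22RV1 cells. The sequences run from 5′ to 3′ on the strand of the gene and end at the base before the start. The match in HSPA6 began 74 bases before the start, those in HSPA8 began 230 and 55 bases before it, and the 3 overlapping matches in CHORDC1 began 60, 55 and 50 bases before it. HSP90AA1 has a second start, and the window shown is that of the downstream start, with its match at 88 bases. HSPD1 also has a second start, whose window held no match of 3 units. The HSPD1 window shown is that of the downstream start, near the divergent gene HSPE1, with overlapping matches at 245 and 240 bases.
HSPA6 (chr1:161524290-161524539, plus strand): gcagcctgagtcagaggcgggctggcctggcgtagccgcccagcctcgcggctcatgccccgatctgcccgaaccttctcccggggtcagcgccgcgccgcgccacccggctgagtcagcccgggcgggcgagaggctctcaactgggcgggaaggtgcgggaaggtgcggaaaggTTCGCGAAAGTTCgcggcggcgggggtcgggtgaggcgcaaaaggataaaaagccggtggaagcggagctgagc
HSPA8 (chr11:123062137-123062386, minus strand): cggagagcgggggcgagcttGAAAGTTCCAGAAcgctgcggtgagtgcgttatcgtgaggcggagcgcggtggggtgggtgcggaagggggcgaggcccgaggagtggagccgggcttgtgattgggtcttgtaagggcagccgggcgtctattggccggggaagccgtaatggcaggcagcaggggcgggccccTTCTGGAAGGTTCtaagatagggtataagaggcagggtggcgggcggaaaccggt
CHORDC1 (chr11:90223050-90223299, minus strand): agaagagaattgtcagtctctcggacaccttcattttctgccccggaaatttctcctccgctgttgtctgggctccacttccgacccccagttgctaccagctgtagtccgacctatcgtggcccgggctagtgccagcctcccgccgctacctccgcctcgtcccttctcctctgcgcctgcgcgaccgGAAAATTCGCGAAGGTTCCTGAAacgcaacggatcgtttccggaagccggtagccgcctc
HSP90AA1 (chr14:102087045-102087294, minus strand): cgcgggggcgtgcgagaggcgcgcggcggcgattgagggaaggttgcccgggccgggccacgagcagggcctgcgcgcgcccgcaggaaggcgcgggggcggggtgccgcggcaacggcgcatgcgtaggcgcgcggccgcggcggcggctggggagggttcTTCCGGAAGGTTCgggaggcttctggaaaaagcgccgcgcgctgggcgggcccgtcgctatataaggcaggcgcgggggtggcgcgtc
HSPD1 (chr2:197499841-197500090, minus strand): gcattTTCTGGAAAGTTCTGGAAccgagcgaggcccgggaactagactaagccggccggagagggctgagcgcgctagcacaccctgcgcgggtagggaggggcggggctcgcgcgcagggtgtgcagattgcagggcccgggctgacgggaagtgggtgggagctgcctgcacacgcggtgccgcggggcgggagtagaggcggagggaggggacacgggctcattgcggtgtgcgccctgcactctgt

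The members differed over more than 4 orders of magnitude in level per length, given as RPKM, a count scaled to the length of the exons in GENCODE 44 and to the total of the library. HSP90AB1, the constitutive cytosolic HSP90, was the highest, with 548 to 625 RPKM in 22RV1 and 1357 to 1515 RPKM in DU145. HSPA8, the constitutive cytosolic HSP70, had 174 to 489 RPKM over the 8 libraries, and HSP90AA1, the more inducible HSP90, had 260 to 516 RPKM. The order below HSP90AB1 changed between libraries. CCT3, with 242 and 235 RPKM, was above HSPA8 in both DU145 libraries with PBS, and HSPB1, with 345 RPKM, was above HSP90AA1 in 22RV1 vector cells with H2O2. HSPB1, CCT3, CCT7, CCT4, CCT8, STIP1, CCT2 and HSPD1 also had at least 58.2 RPKM in every library. At the other end, CRYAB, the lens and muscle small heat shock protein alpha-B crystallin, stayed at or below 0.431 RPKM, and HSPA12A, a distant HSP70 relative, at or below 1.502 RPKM. HSPA6 covered the widest range, from 0.0433 RPKM in 22RV1 PAGE4 cells with PBS to 29.1 RPKM in DU145 PAGE4 cells with H2O2. The members together took 1.14% to 1.26% of the counts in 22RV1. In DU145 they took 1.35% and 1.39% with PBS, and 1.74% and 1.87% with H2O2.

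**Figure D1:**
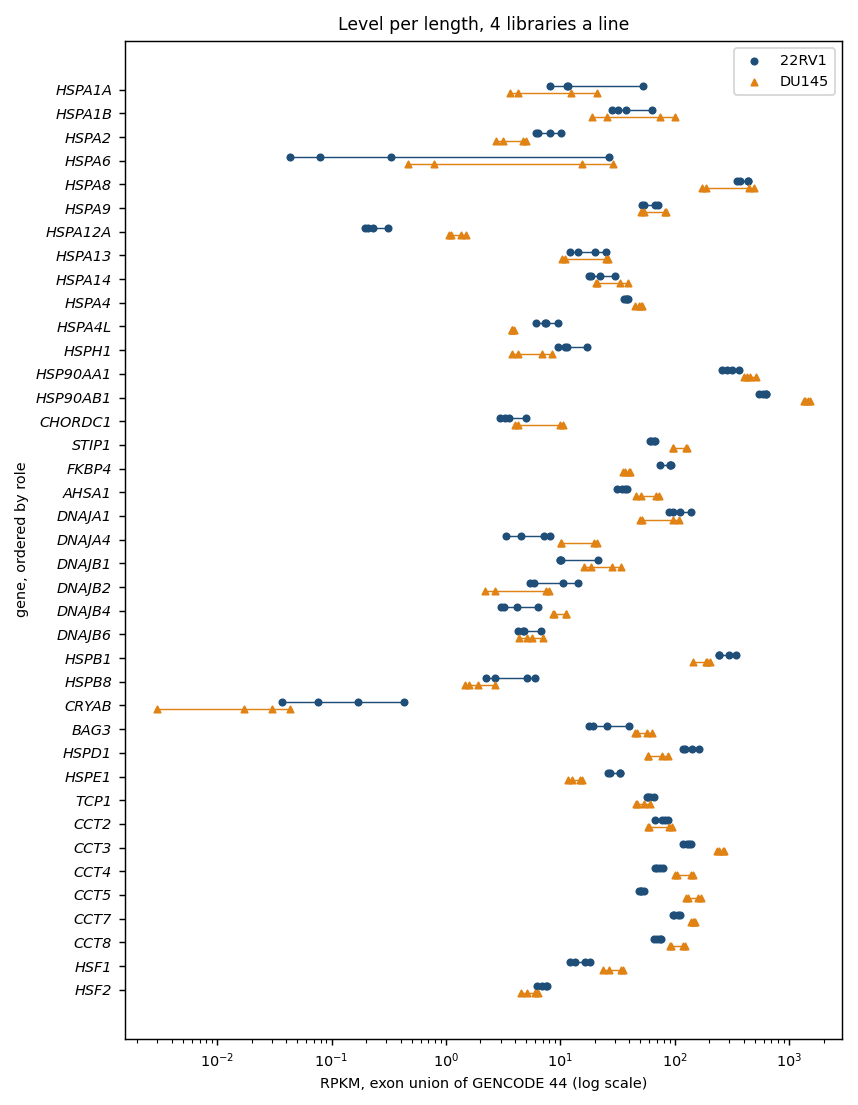
Level of each of the 39 genes in RPKM (log axis) in the 4 libraries of 22RV1 (circles) and of DU145 (triangles), with a line from the lowest to the highest library. CRYAB in DU145 PAGE4 cells with PBS had no read and is drawn at the left end, HSPA6 has the widest range, and HSP90AB1 is the highest in every library.

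To ask which members responded to H2O2, treated and control libraries were compared over the 4 pairs with edgeR's quasi-likelihood test, at an adjusted p under 0.05. The fit covered 22418 genes, including all 39 members. With H2O2, 14 members rose and 0 fell (DESeq2 called 14 and 0), and at an unadjusted p under 0.05 the numbers were 19 and 0. Over all genes tested, 8.89% rose and 11.2% fell. The median log2 fold change of the members was 0.27, and that of all genes tested was -0.03. The 14 members were the HSP70 proteins HSPA1A, HSPA1B, HSPA6, HSPA9, HSPA13 and HSPA14, the J-domain proteins DNAJA1, DNAJA4, DNAJB1 and DNAJB2, the HSP90 co-chaperone CHORDC1, HSPB8, BAG3 and HSF1. No gene of the HSP110 or HSP90 family or of either chaperonin passed this test. The count rested on most of the pairs, since it was 5 without the 22RV1 vector pair, 5 without the DU145 vector pair and 4 without the DU145 PAGE4 pair, against 15 without the 22RV1 PAGE4 pair.

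Within single pairs, genes were counted at a change of over 1.5-fold in normalized count, where the line's 4 libraries averaged 10 or more. Normalized counts were scaled within a line, so they compare the libraries of a line and not the lines. In 22RV1 vector cells, 12 of 39 members were higher with H2O2 and 0 were lower, beside 17.7% and 19.7% of all genes. In 22RV1 PAGE4 cells, 5 were higher and 2 lower, beside 14.8% and 15.7%. In DU145 vector cells, 13 of 38 members were higher and 0 lower, beside 19% and 21.3%. In DU145 PAGE4 cells, 16 of 38 were higher and 0 lower, beside 19.4% and 21.9%. The 22RV1 PAGE4 pair therefore had a member share near that of all genes on the higher side, and the other pairs had larger shares. Scaling 22RV1 libraries by total counts moved the median of all genes by 0.11 in the vector pair and 0.12 in the PAGE4 pair on the log2 scale, and the values below are relative to the size factors.

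**Figure D2:**
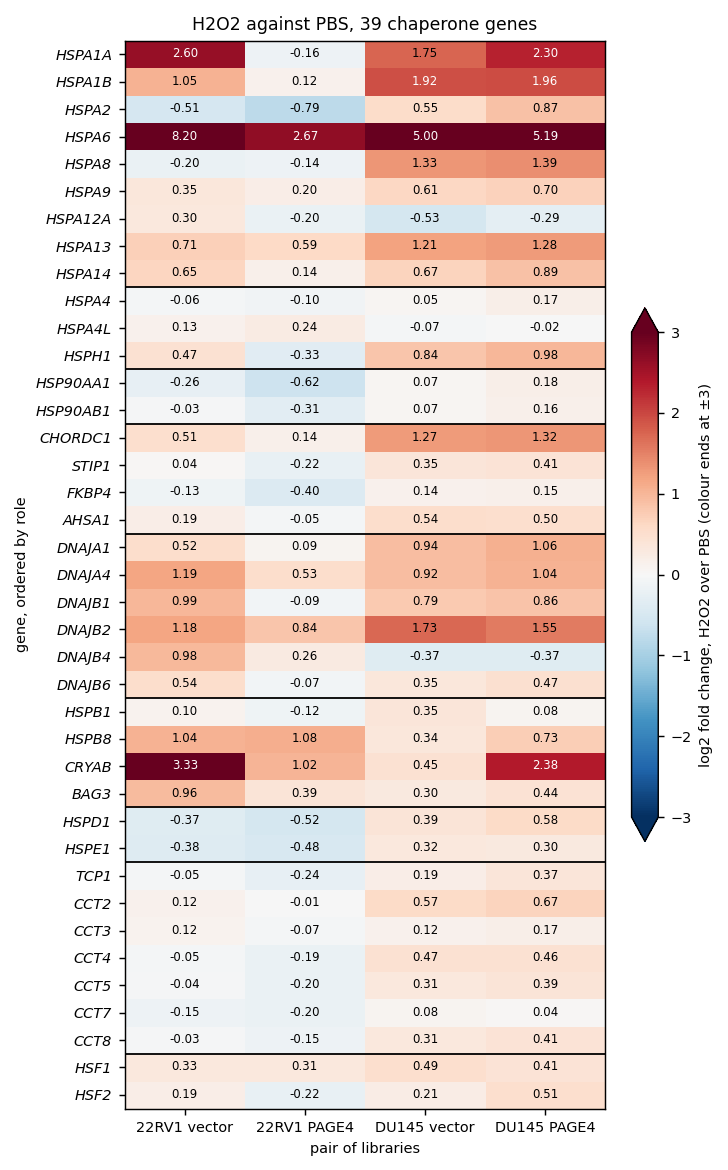
Log2 fold change of H2O2 over PBS for the 39 genes (rows, by role) in the 4 pairs of libraries (columns), with each value printed and red for higher. HSPA6 is red in all 4 columns, and 24 of the 39 genes are below 0 in 22RV1 PAGE4 cells against 13 in 22RV1 vector cells. The DU145 values of CRYAB rest on 5 or fewer counts a library.

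HSPA6, a strictly inducible HSP70 that is almost silent without stress, changed most. In 22RV1 vector cells its count was 8 with PBS and 2156 with H2O2. In 22RV1 PAGE4 cells it was 4 and 20. The 2 DU145 pairs had 33 and 950 counts in vector cells and 55 and 1809 in PAGE4 cells. Every H2O2 library was above its own control, and the 22RV1 PAGE4 library with H2O2 was below both DU145 controls per length (0.333 RPKM against 0.465 and 0.790 RPKM). The log2 fold changes were 8.20 (95% Clopper-Pearson interval for counting error, 7.32 to 9.51) in 22RV1 vector cells, 2.67 (1.24 to 4.83) in 22RV1 PAGE4 cells, 5.002 (4.53 to 5.57) in DU145 vector cells and 5.19 (4.82 to 5.62) in DU145 PAGE4 cells. Over the 4 pairs HSPA6 rose by 5.67 ± 0.57 (SE) on the log2 scale (edgeR adjusted p = 0.00119). HSPA6 shared 27.8% of its 100-base words with the neighbouring copy HSPA7, which had 2 and 53 counts, 0 and 1, 2 and 39, and 0 and 51 in the same 4 pairs, so some reads may be assigned to either.

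HSPA1A and HSPA1B, the main stress-inducible HSP70 genes, encode nearly the same protein and share 69.5% of the 100-base words of HSPA1A, so they were also summed. The normalized count of HSPA1A in 22RV1 was 691 and 4197 in vector cells with PBS and H2O2, and 1022 and 915 in PAGE4 cells. In DU145 it was 245 and 824 in vector cells, and 284 and 1397 in PAGE4 cells. Both DU145 pairs and the 22RV1 vector pair were thus higher with H2O2, and the 22RV1 PAGE4 pair was not. HSPA1B had 2538 and 5244, and 2924 and 3178, in the 22RV1 pairs, and 1340 and 5086, and 1800 and 7002, in the DU145 pairs. Over the 4 pairs, HSPA1A rose by 1.63 ± 0.41 (SE, adjusted p = 0.0286) and HSPA1B by 1.24 ± 0.28 (adjusted p = 0.0197) on the log2 scale. The sum of both genes changed by 1.55, 0.05, 1.90 and 2.01 on the log2 scale in 22RV1 vector, 22RV1 PAGE4, DU145 vector and DU145 PAGE4 cells.

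**Figure D3:**
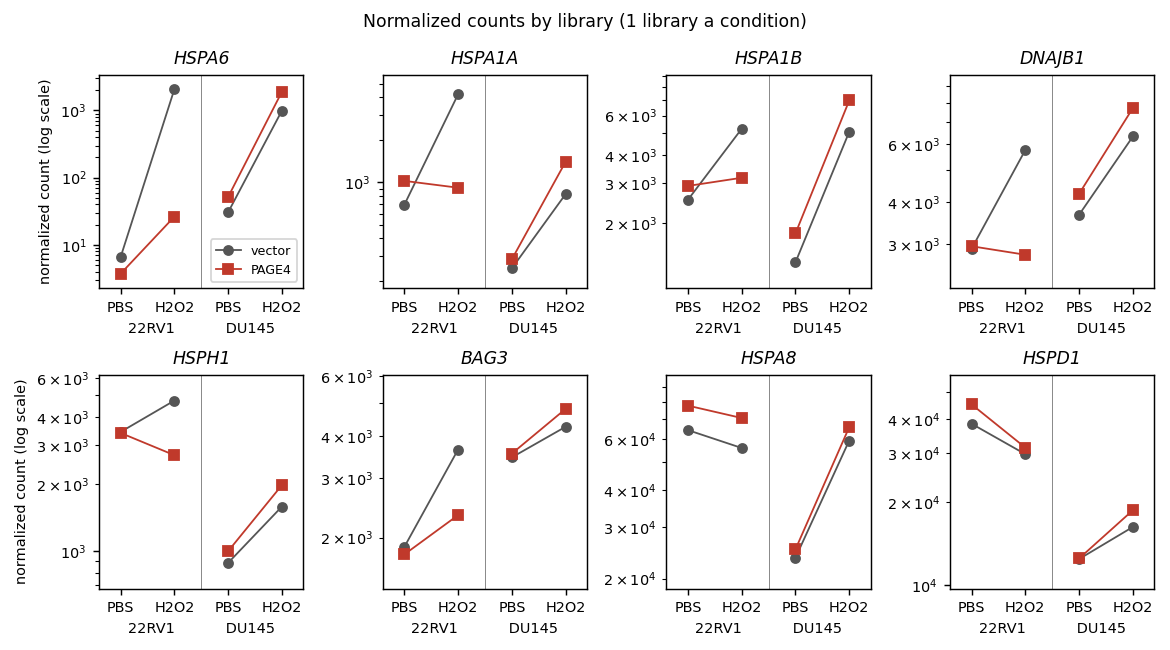
Normalized counts (log axis, scaled within a line) of 8 genes with PBS and H2O2 in 22RV1 (left of the grey line) and DU145 (right), for vector (grey circles) and PAGE4 cells (red squares), 1 library a point. In 22RV1 vector cells HSPA6, HSPA1A, HSPA1B and DNAJB1 are at least 1.99-fold higher with H2O2 and HSPH1 is 1.38-fold higher, in 22RV1 PAGE4 cells HSPA6 is 6.35-fold and HSPA1B 1.09-fold higher and the other 3 are not higher, and HSPA8 and HSPD1 rise in DU145 and fall in 22RV1.

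Among the constitutive HSP70 genes, HSPA8, also known as HSC70, moved in opposite directions in the 2 lines. Its normalized count in 22RV1 was 64300 and 55867 in vector cells with PBS and H2O2, and 77959 and 70715 in PAGE4 cells. In DU145 it was 23562 and 59252 in vector cells, and 25175 and 65862 in PAGE4 cells. HSPA8 rose in DU145 by 1.31 ± 0.06 (SE, 2 pairs, adjusted p = 1.03e-10) and fell in 22RV1 by 0.18 ± 0.06 (adjusted p = 0.0313) on the log2 scale. In 22RV1 its pair values were -0.20 with the vector and -0.14 with PAGE4. Total counts moved the median of all genes in these pairs by 0.11 and 0.12, so the size of the fall depends on the scaling. HSPA2, best known from the testis, also differed in direction, with log2 fold changes of -0.51 and -0.79 in the 22RV1 vector and PAGE4 pairs and of 0.55 and 0.87 in the DU145 pairs. Its fitted change was -0.66 ± 0.12 in 22RV1 (adjusted p = 0.00047) and 0.66 ± 0.13 in DU145 (adjusted p = 0.000507). HSPA9, the mitochondrial HSP70 mortalin, HSPA13, a microsomal HSP70, and HSPA14, which binds ribosomes, rose, with higher values in all 4 pairs, by 0.44 ± 0.10, 0.92 ± 0.13 and 0.56 ± 0.12 (SE) on the log2 scale. HSPA13 was more than 1.5-fold higher in each pair, with normalized counts of 2105 and 3446, 1844 and 2780, 1280 and 2951, and 1184 and 2866. HSPA12A passed edgeR's test in DU145 only, where it fell by 0.46 ± 0.15 (adjusted p = 0.0213). DESeq2 did not call it there (adjusted p = 0.0971), and the difference between the lines did not pass edgeR's test (adjusted p = 0.141).

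The HSP110 genes HSPA4 and HSPA4L had log2 fold changes between -0.10 and 0.24 in the 4 pairs, and neither passed a test of H2O2. HSPH1, the inducible HSP110, had normalized counts of 3426 and 4739 in 22RV1 vector cells, 3390 and 2693 in PAGE4 cells of that line, 884 and 1583 in DU145 vector cells and 998 and 1977 in DU145 PAGE4 cells. It was higher with H2O2 in 3 of the 4 pairs and lower in 22RV1 PAGE4 cells. In DU145 HSPH1 rose by 0.87 ± 0.14 on the log2 scale (adjusted p = 6.34e-05), while in 22RV1 the value was 0.06 ± 0.13 (adjusted p = 0.774).

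HSP90AA1 had normalized counts of 57752 and 48393, and 68298 and 44400, in the 22RV1 vector and PAGE4 pairs, and of 57665 and 60352, and 64539 and 73080, in the DU145 pairs. Both 22RV1 libraries with H2O2 were below both 22RV1 controls. HSP90AA1 fell in 22RV1 by 0.45 ± 0.07 (SE, adjusted p = 0.000162), and HSP90AB1 by 0.18 ± 0.06 (adjusted p = 0.043), on the log2 scale. In DU145 the values were 0.08 ± 0.07 and 0.07 ± 0.06, and neither passed the test. With total counts, the log2 fold change of HSP90AB1 in the 22RV1 vector pair turned from -0.03 to 0.08.

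Of the HSP90 co-chaperones, CHORDC1, an inhibitor of stress kinases that binds HSP90, rose most. Its normalized count was 1288 and 1829 in 22RV1 vector cells, 1197 and 1320 in PAGE4 cells of that line, 1245 and 3010 in DU145 vector cells and 1309 and 3276 in DU145 PAGE4 cells. The rise was 1.25 ± 0.10 in DU145 (adjusted p = 5.6e-08) and 0.32 ± 0.10 in 22RV1 (adjusted p = 0.028) on the log2 scale, and DESeq2 did not call the latter. STIP1, which links HSP70 to HSP90, and AHSA1, which activates the HSP90 ATPase, rose in DU145 by 0.34 ± 0.07 and 0.47 ± 0.08, and had -0.10 ± 0.08 and 0.06 ± 0.08 in 22RV1, which did not pass. FKBP4, a co-chaperone of steroid receptors, fell in 22RV1 by 0.28 ± 0.08 (adjusted p = 0.0108), and its value in DU145 was 0.10 ± 0.08 (adjusted p = 0.367).

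The J-domain proteins had positive fitted values for all 6 genes, and 4 of them rose over the 4 pairs, beside 8.89% of all genes. DNAJB1, the partner of the inducible HSP70, had normalized counts of 2897 and 5768 in 22RV1 vector cells, 2948 and 2778 in PAGE4 cells of that line, 3672 and 6336 in DU145 vector cells and 4249 and 7727 in DU145 PAGE4 cells. The control values of the 2 constructs were close in 22RV1, and their H2O2 values were 2.08-fold apart. With total counts, the log2 fold change in the 22RV1 PAGE4 pair turned from -0.09 to 0.04. DNAJB2, a neuronal J-domain protein that also occurs elsewhere, rose by 1.29 ± 0.15 over the 4 pairs (adjusted p = 0.00209), by at least 1.79-fold in each. DNAJA4 rose by 0.89 ± 0.12, with folds of 2.27, 1.45, 1.90 and 2.06 in 22RV1 vector, 22RV1 PAGE4, DU145 vector and DU145 PAGE4 cells. DNAJA1, the main cytosolic type A partner of HSP70, rose by 0.62 ± 0.15.

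DNAJB4 was the J-domain gene with opposite directions in the 2 lines. Its normalized count was 397 and 784 in 22RV1 vector cells, 430 and 515 in PAGE4 cells of that line, 1156 and 892 in DU145 vector cells and 1155 and 893 in DU145 PAGE4 cells. It rose in 22RV1 by 0.62 ± 0.15 (adjusted p = 0.00473) and fell in DU145 by 0.42 ± 0.14 (adjusted p = 0.0271) on the log2 scale, and DESeq2 called no member lower in DU145. DNAJB6, a suppressor of polyglutamine aggregation, rose in DU145 by 0.37 ± 0.11 (adjusted p = 0.0169), and in 22RV1 its log2 fold change was 0.54 with the vector and -0.07 with PAGE4.

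Among the small heat shock proteins, HSPB8, which acts with BAG3 in the autophagy of misfolded proteins, had normalized counts of 345 and 711, 290 and 613, 148 and 187, and 159 and 264 in the 22RV1 vector, 22RV1 PAGE4, DU145 vector and DU145 PAGE4 pairs. It rose by 0.78 ± 0.18 over the 4 pairs (adjusted p = 0.0199), and the fold in 22RV1 was nearly the same in vector cells (2.06) and PAGE4 cells (2.12). BAG3 itself, which couples HSP70 to the small heat shock proteins, had 1876 and 3642, 1783 and 2331, 3453 and 4253, and 3543 and 4803 normalized counts in the same order. BAG3 rose by 0.49 ± 0.12 (adjusted p = 0.0278), and every H2O2 library was above its control. HSPB1, the abundant HSP27, had log2 fold changes from -0.12 to 0.35 and did not pass. The counts of CRYAB were 7 and 65 in the 22RV1 vector pair, against 13 and 19 in the PAGE4 pair. In DU145 it had 4 and 5 counts in vector cells and 0 and 2 in PAGE4 cells, too few at this depth for a fold change.

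The mitochondrial chaperonin fell in 22RV1. HSPD1, the HSP60 subunit, had normalized counts of 38424 and 29797 in 22RV1 vector cells, 45183 and 31466 in PAGE4 cells of that line, 12406 and 16218 in DU145 vector cells and 12462 and 18655 in DU145 PAGE4 cells. Both treated 22RV1 libraries were below both controls, and both treated DU145 libraries were above both controls. HSPD1 fell in 22RV1 by 0.46 ± 0.07 (adjusted p = 9.65e-05) and rose in DU145 by 0.44 ± 0.07 (adjusted p = 8.4e-05) on the log2 scale. Its cofactor HSPE1, the HSP10 subunit, had 2147 and 1649, 2206 and 1581, 599 and 746, and 643 and 790 normalized counts in the same order. HSPE1 fell in 22RV1 by 0.44 ± 0.10 (adjusted p = 0.00368), and in DU145 the value was 0.26 ± 0.11 (adjusted p = 0.0739).

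The CCT genes encode the subunits of 1 ring complex, and they moved little. In DU145, 5 of the 7 measured subunits rose, beside 16.9% of all genes. They were TCP1, CCT2, CCT4, CCT5 and CCT8, which rose by 0.24 to 0.57 on the log2 scale. CCT3 and CCT7 had 0.10 ± 0.07 and 0.02 ± 0.07 there and did not pass. CCT2 had the largest change, with normalized counts of 7036 and 10424 in DU145 vector cells and 6907 and 11009 in DU145 PAGE4 cells. In 22RV1 none of the 7 passed (1 at an unadjusted p under 0.05, and 1 lower by DESeq2), beside 12.8% higher and 14.9% lower over all genes. Their log2 fold changes in the 22RV1 pairs lay between -0.24 and 0.12. With total counts, TCP1, CCT4, CCT5 and CCT8 in the 22RV1 vector pair and CCT2 and CCT3 in the PAGE4 pair turned from below 0 to above 0. CCT5 shared 27.0% of its 100-base words with an overlapping gene, and its counts may hold reads of both.

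Of the heat shock factors, HSF1 rose by 0.36 ± 0.08 on the log2 scale over the 4 pairs (adjusted p = 0.0222). Its normalized counts were 2548 and 3191, 2349 and 2907, 3516 and 4954, and 3906 and 5192 in the 22RV1 vector, 22RV1 PAGE4, DU145 vector and DU145 PAGE4 pairs. HSF2, a factor active in development and in stress, had 598 and 682, 733 and 629, 381 and 442, and 338 and 481 in the same order and did not pass (0.14 ± 0.14, adjusted p = 0.531). HSF1 was higher in each pair, and HSF2 in 3 of 4. The protein level and activity of HSF1 were not measured by these libraries.

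To compare the response between the lines, H2O2 was fitted within each line over its 2 pairs, and the difference was tested. In 22RV1, 16 members rose and 7 fell, where 12.8% and 14.9% of all genes did. DESeq2 called 11 and 8 there, without HSPA1A, HSPA1B, CHORDC1 and DNAJB1, and gave CRYAB no adjusted p. In DU145, 26 rose and 2 fell, where 16.9% and 19.8% of all genes did (23 and 0 by DESeq2). The difference between the lines passed the test for 22 members. The H2O2 effect was higher in 22RV1 for 2 (HSPA6 and DNAJB4), beside 8.76% of all genes, and lower in 22RV1 for 20, beside 7.54%. The median difference was -0.38 over the members and 0.03 over all genes tested, on the log2 scale.

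The 20 members came from most roles. They were HSPA1B, HSPA2, HSPA8, HSPA9 and HSPA13, HSPH1, HSP90AA1, all 4 HSP90 co-chaperones, DNAJA1 and DNAJB2, both genes of the mitochondrial chaperonin and 5 CCT genes. None of the 4 small heat shock protein and BAG3 genes passed, although 2 had an unadjusted p under 0.05, and DESeq2 called none of them. HSPA8 had the largest of the 20 differences (-1.50 ± 0.09, adjusted p = 3.89e-09), followed by HSPA2 (-1.32 ± 0.18) and HSPA1B (-1.32 ± 0.19). The result for HSPA6 (2.50 ± 0.62, adjusted p = 0.00956) rested on the 22RV1 vector pair, and without it the difference was -2.357. DESeq2 gave 0.56 ± 2.02 for it and did not call it (adjusted p = 0.899). Fitted values of HSPA6 in 22RV1 (7.57 ± 0.44) likewise stand for the pair with 2156 counts and not for the pair with 20.

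Without the 22RV1 vector pair, HSPA1A, HSPH1 and DNAJB1 had log2 fold changes of -0.17, -0.34 and -0.10 in 22RV1. Shares over all genes were not taken from fits with a pair left out, so the counts that follow show dependence on the pairs only. Leaving out pairs gave 14 to 27 members with a lower effect in 22RV1 and 1 to 5 with a higher one. The number higher was 1 without the 22RV1 vector pair and 5 without the 22RV1 PAGE4 pair. The 2 members lower in DU145 were 0 without either DU145 pair.

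**Figure D4:**
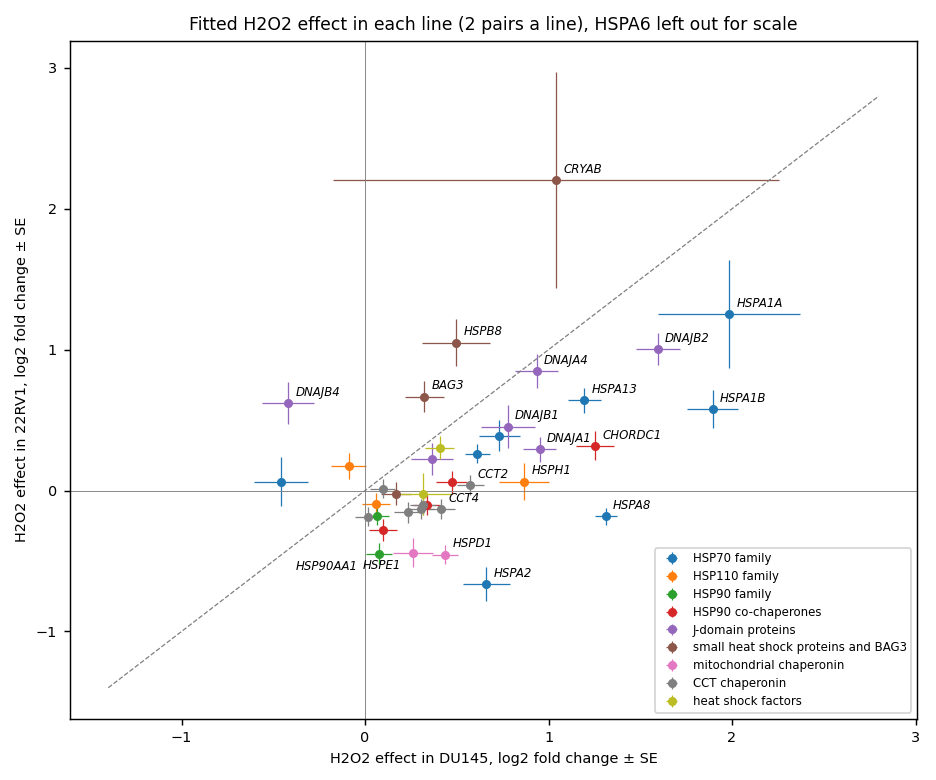
Fitted log2 fold change of H2O2 (± SE) in DU145 (x axis) and in 22RV1 (y axis) for 38 genes, coloured by role, with equal effects on the dashed line. Most points lie below the line, HSPA8, HSPA2, HSPD1 and HSPE1 lie right of 0 and below 0, and DNAJB4 lies at -0.42 in DU145 and 0.62 in 22RV1.

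The next question was whether PAGE4 cells responded to H2O2 as vector cells did. In 22RV1, the fold of 9 members was lower in PAGE4 cells than in vector cells by more than 1.5-fold, and that of 0 was higher. Over all genes in 22RV1 these shares were 12.1% and 13.9%. The 9 members were HSPA1A, HSPA1B, HSPA6, HSPH1, DNAJA4, DNAJB1, DNAJB4, DNAJB6 and CRYAB. The median difference was -0.27 over the members and -0.01 over all genes on the log2 scale. In DU145 there were 0 members in either direction, beside 10.5% lower and 10% higher over all genes, and the median difference was 0.09. These values come from 1 library a condition and have no test within a line.

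Differences in the log2 fold change, PAGE4 minus vector, were -5.53 for HSPA6, -2.76 for HSPA1A, -1.08 for DNAJB1, -0.93 for HSPA1B and -0.80 for HSPH1 in 22RV1. In DU145 the same genes had 0.19, 0.55, 0.08, 0.04 and 0.14. The 22RV1 value of HSPA6 rests on PBS counts of 8 and 4, so its size is uncertain. HSPA8, HSPA4, HSPA4L and the 7 CCT genes lay between -0.18 and 0.11 in 22RV1. HSP90AB1, HSPA2 and HSPA14 had -0.28, -0.28 and -0.51 there, so members outside the inducible genes were not all near 0. Members higher with H2O2 in both 22RV1 pairs by similar amounts included HSPB8, HSF1, HSPA4L and HSPA13 (differences 0.04, -0.02, 0.11 and -0.12). The 22RV1 PAGE4 library with H2O2 was the least deep, with 25482984 counts against 34383513 in vector cells, and whether the library itself played a part was not tested.

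**Figure D5:**
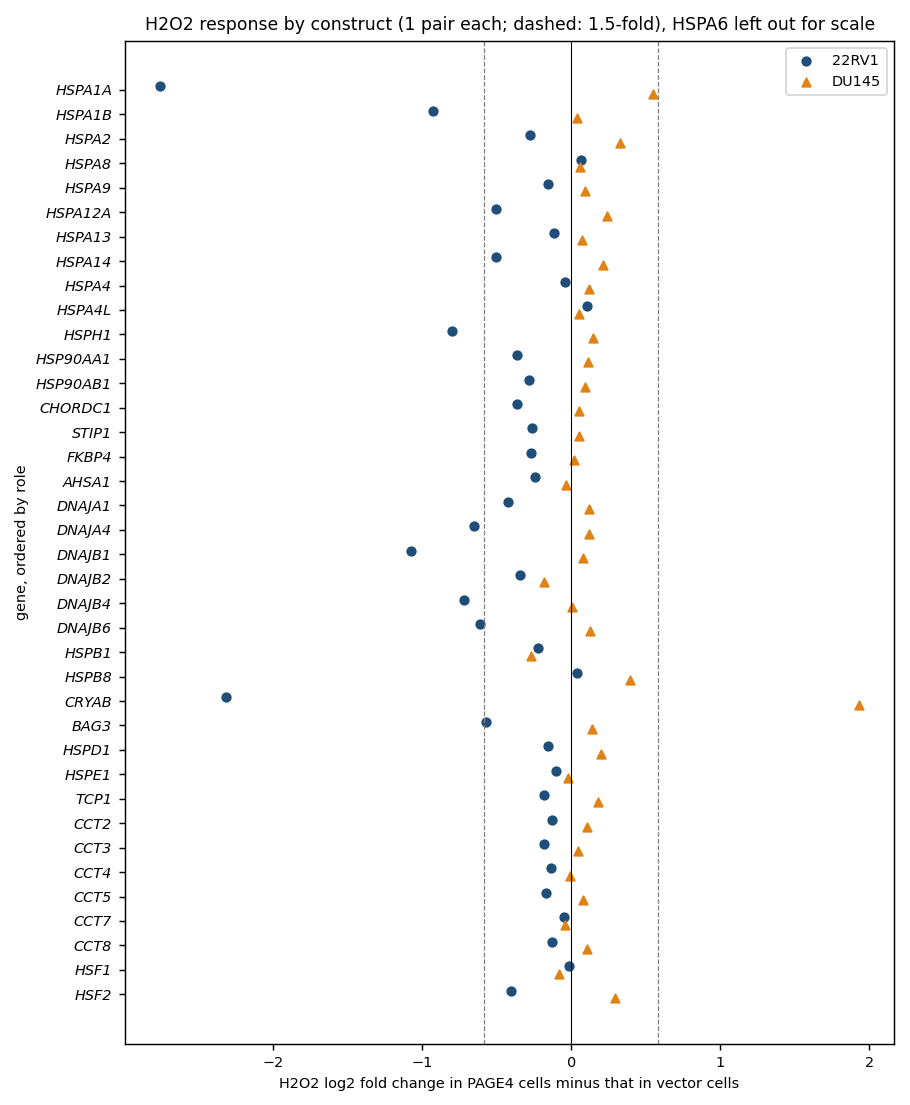
Difference between the H2O2 log2 fold change in PAGE4 cells and that in vector cells for 38 genes, in 22RV1 (circles) and DU145 (triangles), with dashed lines at a 1.5-fold difference. In 22RV1 8 of the genes drawn lie left of the lower dashed line, and in DU145 CRYAB, which did not reach the count minimum there, is the gene outside the dashed lines.

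Over both lines together, the difference of the H2O2 effect between constructs passed edgeR's test for 2 members, lower in PAGE4 cells, and 0 higher, beside 0.116% and 0.0758% of all genes (5 lower and 0 higher at an unadjusted p under 0.05, and 0 by DESeq2). They were HSPA1A (-1.23 ± 0.19, adjusted p = 2.13e-07) and DNAJB1 (-0.49 ± 0.12, adjusted p = 0.0459). The pair values given above had opposite signs in the 2 lines for both genes. Each fitted value is thus an average of a large negative difference in 22RV1 and a positive one in DU145. The SE and p of the fit did not reflect this disagreement. DESeq2 gave -1.10 ± 1.31 for HSPA1A and -0.49 ± 0.29 for DNAJB1. The fit had 1 residual degree of freedom. With the 2 copies summed, HSPA1A and HSPA1B had -0.69 ± 0.13 (adjusted p = 7.87e-05), which has the same limit. The H2O2 log2 fold change of the sum was 1.55 in vector and 0.05 in PAGE4 cells of 22RV1. In DU145 it was 1.90 and 2.01, the opposite direction.

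PAGE4 cells were then compared with vector cells under the same treatment. With PBS in 22RV1, 1 member was higher (CRYAB) and 1 lower (HSPA6) by more than 1.5-fold, beside 8.35% and 11.3% of all genes, and both rested on 13 or fewer counts a library. With H2O2 in 22RV1, 0 were higher and 9 lower, beside 11.1% and 12.1%. The 9 were HSPA1A, HSPA1B, HSPA6, HSPA12A, HSPH1, DNAJB1, DNAJB4, CRYAB and BAG3. HSPA6 was 77.5-fold lower (log2 fold change -6.28, interval -7.02 to -5.67), HSPA1A 4.59-fold lower and DNAJB1 2.08-fold lower.

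In DU145 with PBS, 1 member was higher and 0 lower, beside 7.54% and 7.76%. With H2O2, 2 were higher and 0 lower, beside 7% and 8.2%. HSPA6 was the member higher with PBS (1.68-fold, 33 and 55 counts), and with H2O2 HSPA6 (1.91-fold) and HSPA1A (1.70-fold) were higher. The inducible HSP70 genes thus had opposite directions in the 2 lines under H2O2. Their difference between the lines is given for PAGE4 in the next paragraph.

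Over the 4 pairs of PAGE4 and vector libraries, 0 members passed edgeR's test in either direction, beside 0.174% of all genes (2 at an unadjusted p under 0.05, and 0 by DESeq2). In DU145, 0 passed, beside 0.17% (5 at an unadjusted p under 0.05, and 0 by DESeq2). In 22RV1, 2 rose and 2 fell, beside 2.15% and 2.14%. HSPA8 was higher by 0.30 ± 0.06 (adjusted p = 0.00658) and HSPA4L by 0.35 ± 0.09 (adjusted p = 0.038) on the log2 scale. HSPB1 was lower by 0.39 ± 0.08 (adjusted p = 0.00894), with normalized counts of 17364 and 18586 (PBS and H2O2) with the vector and 14456 and 13257 with PAGE4. HSPA6 was lower (-5.93 ± 0.41, adjusted p = 4.13e-08), a value set by the H2O2 libraries, and with that pair left out 0 members were lower. DESeq2 gave HSPA6 -3.74 ± 1.47 and did not call it (adjusted p = 0.160).

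The numbers lower in 22RV1 and higher in DU145 changed when a pair was left out. The shares over all genes were not taken from those fits, so these changes show dependence on the pairs only. The PAGE4 effect differed between the lines for 2 members, both lower in 22RV1, HSPA6 (-6.81 ± 0.48, adjusted p = 2.49e-07) and HSPB1 (-0.65 ± 0.11, adjusted p = 0.00488), and for 0 in the other direction. DESeq2 did not call HSPA6 here either (-4.58 ± 2.01, adjusted p = 0.339). The shares over all genes were 0.977% and 0.865%. This count changed with the 22RV1 pair left out, and no share over all genes was taken from those fits. HSPA1A, HSPA1B, HSPH1 and DNAJB1 had differences of -1.36, -0.70, -0.66 and -0.76 and did not pass (adjusted p = 0.276, 0.0804, 0.0874 and 0.0832).

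Between the lines themselves, 10 members were higher in 22RV1 and 19 lower, beside 31.9% and 28.5% of all genes tested. The share higher was thus below, and the share lower above, that of all genes. FKBP4 (0.99 ± 0.12), HSPH1 (0.92 ± 0.23), HSPE1 (0.92 ± 0.17) and HSPD1 (0.76 ± 0.19) were higher in 22RV1 on the log2 scale. CRYAB also passed as higher, with 7 to 65 counts a library in 22RV1 and 0 to 5 in DU145, too few for a size of the difference. HSPA12A (-2.62 ± 0.19), CCT5 (-1.70 ± 0.12), DNAJA4 (-1.58 ± 0.12), DNAJB4 (-1.51 ± 0.23), HSP90AB1 (-1.45 ± 0.11), BAG3 (-1.31 ± 0.15) and HSF1 (-1.19 ± 0.10) were lower. The mitochondrial chaperonin and the cytosolic one differed in direction, with both mitochondrial genes higher in 22RV1 and 5 of 7 CCT genes lower. TCP1, CCT2, HSPA8, HSPA13, HSPA1A, HSPA1B, HSPA6, DNAJA1, DNAJB6 and HSF2 did not pass. HSPA6 had -2.98 ± 1.24 (edgeR adjusted p = 0.0672), and DESeq2 called it lower in 22RV1 (adjusted p = 0.00748).

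A list of 69 other chaperone genes was examined beside the members, and 64 of them were tested. With H2O2 over the 4 pairs, 14 rose and 9 fell, where 8.89% and 11.2% of all genes did. By list, these were 4 and 2 of 15 other HSP70 proteins and exchange factors, 6 and 2 of 22 other J-domain proteins, 2 and 3 of 13 other HSP90 proteins and co-chaperones, 0 and 1 of 3 other small heat shock proteins, 1 and 0 of 8 prefoldin and remaining CCT genes, and 1 and 1 of 3 other heat shock factors and modulators. Their median log2 fold change was 0.05, against 0.27 for the members. In these 64 genes the response was lower in 22RV1 than in DU145 for 18 and higher for 2, beside 7.54% and 8.76% of all genes.

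Among the other chaperones that passed and moved in 1 direction in all 4 pairs, 5 had the largest changes. HSF4, a heat shock factor of the lens, fell by 1.13 ± 0.21 on the log2 scale, and FKBP5, an HSP90 co-chaperone induced by steroid receptors, fell by 0.89 ± 0.16. SERPINH1, the collagen chaperone HSP47, rose by 0.89 ± 0.13. DNAJB9, a J-domain protein of the endoplasmic reticulum, rose by 0.86 ± 0.20, and DNAJC2, which binds ribosomes, by 0.78 ± 0.14. The rise of SERPINH1 was 1.30 in the vector pair of 22RV1 against 0.51 in its PAGE4 pair, and 1.00 and 0.86 in the DU145 pairs.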

How the data were processed

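Per the labels and the study's methods, the authors aligned reads with HISAT2 2.1.0 (genome GRCh38) and took gene counts from featureCounts 1.6.0. The deposited values are raw counts for 58828 gene symbols in 1 table per line. The annotation and the strand setting are not given in the sources used here, and 26 symbols read as dates and were kept. Each condition had 1 library of 25482984 to 43310401 counts.

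The members and gene lists were chosen with earlier results of these data known. edgeR 4.0.16 in R 4.3.3 (glmQLFit and glmQLFTest, TMM, filterByExpr) was fitted to all 8 libraries, with the pairs of libraries as blocks and Benjamini-Hochberg adjustment over 22418 genes. SE is the log2 fold change divided by the root of the F statistic. The pairs are different lines, constructs or treatments and not repeated cultures of 1 condition. A p-value therefore does not measure the spread of repeated cultures. SE and p rest on a spread estimated in part from other genes, and can understate disagreement between a gene's own pairs. For HSPA6 with H2O2 in 22RV1, the fit gave 7.57 ± 0.44 from pair values of 8.20 and 2.67. Single pairs were compared on DESeq2 1.42.0 size factors within a line, with a pseudocount of 0.5, a mean of at least 10 and a fold over 1.5. Intervals (95%, conditional Clopper-Pearson) cover counting error only. RPKM used the GENCODE 44 exon union. The rule for named genes took all members, and of the other chaperones the 5 largest changes among those past the H2O2 test and in 1 direction in all 4 pairs. Words of 100 bases shared between transcripts were counted on either strand. Figures used matplotlib 3.10.9, and other code used pandas 2.3.3, numpy 2.4.6 and scipy 1.17.1. Some of the genes that mark the lines are not reported here. Alternatives are in the closing section.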

Additional observations from a re-analysis of the deposited data

Results flagged for a closer look

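The H2O2 effect differed between the 2 lines for 22 of the 39 members by edgeR's test of the difference. Over all genes, the effect was higher in 22RV1 for 8.76% and lower for 7.54%. The values are log2 fold changes in 22RV1 minus those in DU145. In the HSP70 and HSP110 families they were -1.317 for HSPA1B, -1.323 for HSPA2, 2.497 for HSPA6, -1.495 for HSPA8, -0.348 for HSPA9, -0.552 for HSPA13 and -0.804 for HSPH1. For HSP90AA1 and the co-chaperones CHORDC1, STIP1, FKBP4 and AHSA1 they were -0.525, -0.935, -0.435, -0.376 and -0.412. The J-domain genes DNAJA1, DNAJB2 and DNAJB4 had -0.657, -0.592 and 1.040. For HSPD1 and HSPE1 the values were -0.893 and -0.702, and for TCP1, CCT2, CCT4, CCT5 and CCT8 they were -0.391, -0.532, -0.545, -0.437 and -0.416.

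Fitted over both lines, the H2O2 effect differed between PAGE4 and vector cells for HSPA1A (-1.232) and DNAJB1 (-0.487), and DESeq2 called neither. These values average opposite signs in the 2 lines. For HSPA1A the pair values were -2.763 in 22RV1 and 0.549 in DU145, and for DNAJB1 they were -1.079 and 0.076. The PAGE4 effect differed between 22RV1 and DU145 for HSPA6 (-6.812) and HSPB1 (-0.652). The values for HSPA6 are set by the 22RV1 H2O2 libraries, with 2156 and 20 counts, and DESeq2 called neither difference of HSPA6.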

How the results depend on the processing

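Under DESeq2's Wald test, DESeq2 size factors, no filter on low counts, another block or none, the sum of HSPA1A and HSPA1B, and each pair left out, 2357 of the log2 fold changes fitted for single members kept their direction and side of the threshold, 99 lost their call and 111 gained one. A further 120 changed sign without passing in either fit, 101 of them with a pair left out, and 6 that passed in at least 1 of the fits were reversed, all 6 with a pair left out. The cause was not tested. With a pair left out, the H2O2 effect in 22RV1 ran from -0.171 (without the 22RV1 vector pair) to 2.561 for HSPA1A, from -0.342 to 0.426 for HSPH1 and from -0.096 to 0.952 for DNAJB1. The line difference ran from -2.357 (without the 22RV1 vector pair) to 3.113 for HSPA6 and from -2.195 to 0.538 (without the 22RV1 PAGE4 pair) for HSPA1A. The PAGE4 effect in 22RV1 ran from -2.179 to 0.561 (without the 22RV1 H2O2 pair) for HSPA1A. Leaving out each pair gave 4 to 15 members higher with H2O2 over all pairs, 6 to 18 higher in 22RV1 and 0 to 2 lower in DU145. It gave 1 to 5 members with a higher effect in 22RV1 than in DU145. For PAGE4 it gave 2 to 5 higher and 0 to 12 lower in 22RV1, 0 to 6 higher in DU145 and 1 to 13 with a lower effect in 22RV1. DESeq2's test gave 0 members lower with H2O2 in DU145, 1 with a higher effect in 22RV1, 0 with a lower effect in PAGE4 cells, 1 lower with PAGE4 in 22RV1 and 1 with a lower PAGE4 effect in 22RV1. DESeq2 size factors and no filter each gave 1 with a lower H2O2 effect in PAGE4 cells. Without the filter, PAGE4 had 1 member higher and 1 lower over all pairs, 6 lower in 22RV1, 5 higher in DU145 and 7 with a lower effect in 22RV1.

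For single pairs, a fold over 2 left 7, 3, 7 and 9 members higher with H2O2 in 22RV1 vector, 22RV1 PAGE4, DU145 vector and DU145 PAGE4 cells, and 0 lower in 22RV1 PAGE4 cells. It left 4 lower in PAGE4 than in vector cells in 22RV1 with H2O2, 0 lower in 22RV1 with PBS, and 0 higher in DU145 with PBS and with H2O2. With total counts, 1 member was lower with H2O2 in 22RV1 PAGE4 cells. In 22RV1 with PBS, a mean of at least 50 left 0 higher and a pseudocount of 5 left 0 lower in PAGE4 cells. Without a count minimum 1 was lower in PAGE4 cells in DU145 with PBS and 1 with H2O2. A left-out pair leaves 6 libraries, and the fit then assumes that the remaining lone pair varies like the others. Shares over all genes were not taken from these fits, so their member counts show dependence on the pairs and are not results about the members. At these depths, values from under about 10 counts, as for CRYAB in DU145, are not comparable. The HSPA6 folds in 22RV1 also rest on PBS counts of 8 and 4, so their sizes are uncertain.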
